A study of Arabidopsis with 12 samples.

Results

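PRX52, AT5G19890 and AT3G01190 are 3 class III peroxidase genes of Arabidopsis thaliana, followed here over 6 groups of whole seedlings. They were found by gene name in the annotation of the ATH1 array, a short-oligonucleotide array, where each had 1 probe set, and they are 3 of the 22588 features tested. A published numbering of the family lists 73 genes, of which 55 had a probe set with a single gene name here, these 3 and 52 others. The 3 genes were selected on their measured levels over the 6 groups and the differences between them, already known from these data, so their levels and differences are given as a description and without a test, while the 52 others were tested.

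Class III peroxidases are secreted haem enzymes of plants. They use hydrogen peroxide to oxidise phenolic compounds, which cross-links lignin precursors and wall proteins and stiffens the cell wall, and they can also release reactive oxygen. PRX52 is known for its part in making syringyl-rich lignin in the stem. Jasmonate, a lipid-derived hormone of defence and growth control, is perceived through COI1, an F-box protein, and EIN3 and EIL1 are transcription factors that carry out the ethylene response.

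The seedlings were 7 days old, of the Columbia background, and grown on MS medium under long days at constant temperature. They received either 100 µM methyl jasmonate (MeJA) or the solvent ethanol alone (mock) for 4 h. The genotypes were Col-0, the wild type, coi1-2, a coi1 mutant, and ein3 eil1, mutated in both EIN3 and EIL1. All 6 combinations of genotype and treatment had 2 arrays, 12 in all. The labels do not say how the coi1-2 lesion acts, whether seedlings were pooled, or whether the 2 arrays of a group came from separate cultures, so SDs, SEs and p-values cover array-to-array spread alone, which may be technical.

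All values are log2 expression levels as deposited, on which a step of 1 is a doubling of the signal. Array medians lay between 5.23 and 5.4, and lower quartiles, below which a signal may be background, between 3.74 and 3.87. The targeted gene EIN3 was between 9.26 and 9.59 on the 8 Col-0 and coi1-2 arrays and between 5.91 and 6.25 on the 4 ein3 eil1 arrays. COI1 and EIL1 were not analysed here. Of organ markers, RCA, the Rubisco activase of green tissue, lay between 12.47 and 12.77 on all arrays and passed no test, with 1 of 9 leaf markers measured. The root hair expansins EXPA7 and EXPA18, 2 of 7 root hair markers, lay between 5.94 and 7.77, so both leaf and root transcripts were present. Of the 6 endodermis markers 0 had a named probe set. In whole seedlings, fewer cells of a type and less RNA per cell cannot be told apart.

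**Figure D1:**
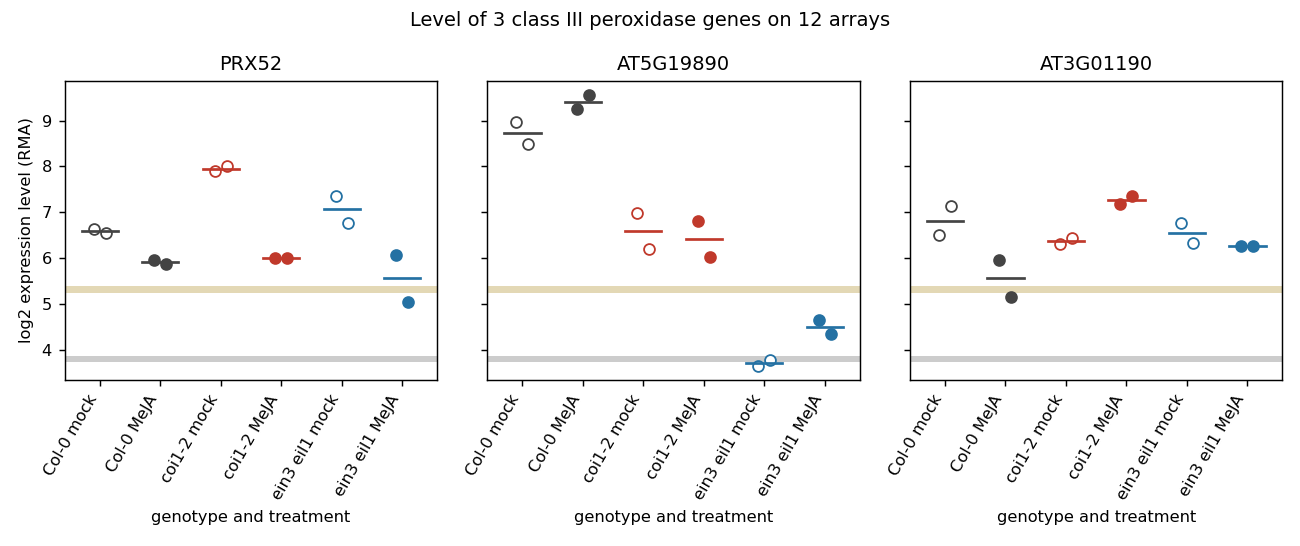
Log2 expression level of PRX52, AT5G19890 and AT3G01190 (vertical axis) in each group of genotype and treatment (horizontal axis). Each point is 1 array (open for mock, filled for MeJA), short lines are group means of 2 arrays, and the grey and tan bands span the lower quartiles and medians of the 12 arrays; PRX52 is highest in coi1-2 mock, AT5G19890 steps down from Col-0 to coi1-2 to ein3 eil1, and AT3G01190 is lowest in Col-0 MeJA.

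The 3 genes had 3 different patterns. PRX52 was lower on MeJA than on mock arrays in each genotype, and its mock level also differed between genotypes, highest in coi1-2. AT5G19890 varied mainly with genotype, in the order Col-0, coi1-2, ein3 eil1. AT3G01190 differed little between genotypes under mock and most under MeJA, where Col-0 was lowest and coi1-2 highest. Over the 12 arrays the Pearson correlation was −0.094 between PRX52 and AT5G19890, 0.115 between PRX52 and AT3G01190 and −0.28 between AT5G19890 and AT3G01190. These describe arrays that share genotypes and treatments.

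PRX52 stood at 6.64 and 6.55 in Col-0 mock and at 5.97 and 5.87 in Col-0 MeJA. In coi1-2 it stood at 7.89 and 8.0 on the mock arrays and at 6.0 and 6.01 on the MeJA arrays. In ein3 eil1 it stood at 7.36 and 6.77 on the mock arrays and at 6.07 and 5.04 on the MeJA arrays. Both MeJA arrays thus lay below both mock arrays in each genotype, and coi1-2 mock lay above every other array. Across all features, MeJA arrays lay below both mock arrays in 27.2% in Col-0, 21.8% in coi1-2 and 21.5% in ein3 eil1. The share of features that do so in every genotype was not counted. Nor was the share with both coi1-2 mock arrays above every other array.

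The fitted MeJA difference of PRX52 was −0.68 ± 0.27 in Col-0 (log2, SE, n = 2 arrays per group here and below), a level 1.60-fold lower. It was −1.94 ± 0.27 in coi1-2, 3.84-fold lower and the 12th lowest of all 22588 features in that comparison. In ein3 eil1 it was −1.51 ± 0.27, 2.84-fold lower, and this value was −0.99 without array 2 of ein3 eil1 MeJA and −2.02 without array 1. Among the 55 measured peroxidases PRX52 had the lowest MeJA difference in coi1-2 and the second lowest, rank 2, in ein3 eil1.

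Under mock, PRX52 was 2.56-fold higher in coi1-2 than in Col-0 (1.35 ± 0.27), rank 3 from the top among the 55 peroxidases, and 0.47 ± 0.27 higher in ein3 eil1. The latter was 0.18 without array 1 of ein3 eil1 mock and 0.77 without array 2. Both mock arrays lay above those of Col-0 in each mutant, as in 23.7% of all features for coi1-2 and 23.2% for ein3 eil1. Under MeJA the genotypes came together. The difference from Col-0 was 0.09 ± 0.27 in coi1-2 and −0.36 ± 0.27 in ein3 eil1, and the latter turned to 0.16 without array 2 of ein3 eil1 MeJA. The MeJA difference of coi1-2 was therefore 1.27 log2 units further down than that of Col-0 (−1.27 ± 0.37), with mock levels that differed by 1.35 and MeJA levels that differed by 0.09.

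In order of mean level, PRX52 ran from coi1-2 mock (7.95) over ein3 eil1 mock (7.07), Col-0 mock (6.59), coi1-2 MeJA (6.01) and Col-0 MeJA (5.92) to ein3 eil1 MeJA (5.56). The pooled SD between replicate arrays was 0.35. The gap between the nearest arrays exceeded it at the first step (0.53) and between Col-0 mock and coi1-2 MeJA (0.54). It did not at the other steps, and the arrays of Col-0 MeJA and ein3 eil1 MeJA overlapped.

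AT5G19890, a peroxidase gene without a symbol in the annotation used, stood at 8.97 and 8.48 in Col-0 mock and at 9.25 and 9.56 in Col-0 MeJA. In coi1-2 it stood at 6.98 and 6.20 on the mock arrays and at 6.81 and 6.03 on the MeJA arrays. In ein3 eil1 it stood at 3.64 and 3.77 on the mock arrays and at 4.65 and 4.34 on the MeJA arrays. No array of one genotype reached into the range of another, and how many features separate in this way was not counted. In coi1-2 replicate 1 was the higher array under both treatments, while the ein3 eil1 mock arrays lay below the lower quartiles of their arrays.

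Against Col-0 under mock, AT5G19890 differed by −5.02 ± 0.28 in ein3 eil1, a level 32.5-fold lower and the lowest difference, rank 1, of all 22588 features. Since the ein3 eil1 mock signal lay below the lower quartile, where it may be background, the size of this difference is uncertain. Under MeJA the difference was −4.91 ± 0.28, 30.0-fold lower and rank 2 from the bottom. In coi1-2 the gene was 4.40-fold lower than in Col-0 under mock (−2.14 ± 0.28, rank 32 from the bottom) and 7.90-fold lower under MeJA (−2.98 ± 0.28, rank 16). Arrays of the mutant lay below both Col-0 arrays in 28.7% of all features for coi1-2 and 29.5% for ein3 eil1 under mock, and in 25.5% and 20.1% under MeJA.

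Under mock the root hair markers were not ordered like AT5G19890. The log2 of their summed signals lay between 8.36 and 8.52 in Col-0 mock and between 7.38 and 7.58 in coi1-2 mock. It lay between 8.02 and 8.36 in ein3 eil1 mock, where AT5G19890 was at its lowest. In coi1-2 mock both measured markers were lower than in Col-0 (EXPA7 at −0.86 ± 0.16, limma adjusted p = 0.00345, and EXPA18 at −1.04 ± 0.26, adjusted p = 0.0168, the latter lost without array 1 of Col-0 mock or array 1 of coi1-2 mock). In ein3 eil1 mock 0 of 2 passed, with EXPA7 at −0.13 ± 0.16 and EXPA18 at −0.34 ± 0.26. Under MeJA, by contrast, the log2 of the summed signals had the genotype order of AT5G19890. It lay between 8.08 and 8.2 in Col-0, 7.66 and 7.88 in coi1-2 and 7.16 and 7.54 in ein3 eil1. Of the 2 markers, 0 passed in coi1-2 against Col-0 under MeJA and EXPA7 did in ein3 eil1 (−1.03 ± 0.16, adjusted p = 0.00217). The part of these markers in the levels of AT5G19890 was not tested.

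MeJA differences of AT5G19890 were smaller than those between genotypes. They were 0.68 ± 0.28 in Col-0 and 0.79 ± 0.28 in ein3 eil1, the highest of the 55 peroxidases in both, and in both genotypes the MeJA arrays lay above the mock arrays, as in 20.1% and 21.6% of all features. In coi1-2 the arrays overlapped and the difference was −0.17 ± 0.28. The Col-0 value ran from 0.43 to 0.93 without array 2 or 1 of Col-0 mock. The ein3 eil1 mock signal may be background, so the size and rank of the ein3 eil1 difference are uncertain. The coi1-2 value ran from −0.56 to 0.23 when single coi1-2 arrays were left out, so it had no settled sign. By mean level the order was Col-0 MeJA (9.41), Col-0 mock (8.73), coi1-2 mock (6.59), coi1-2 MeJA (6.42), ein3 eil1 MeJA (4.50) and ein3 eil1 mock (3.7). The pooled SD was 0.37. The gaps between nearest arrays were 1.5 from Col-0 to coi1-2 and 1.38 from coi1-2 to ein3 eil1, well beyond that SD, and 0.57 between the ein3 eil1 groups. The gap of 0.27 between the Col-0 groups lay within it.

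The next locus in the genome annotation, AT5G19880, is also a class III peroxidase gene, and was singled out here for that place. It lay between 3.19 and 3.61 on all 12 arrays, below every lower quartile, and its group means spanned 0.13 against 5.70 for AT5G19890.

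AT3G01190, also without a symbol, stood at 6.50 and 7.13 in Col-0 mock and at 5.96 and 5.15 in Col-0 MeJA. In coi1-2 it stood at 6.30 and 6.43 on the mock arrays and at 7.17 and 7.34 on the MeJA arrays. In ein3 eil1 it stood at 6.77 and 6.32 on the mock arrays and at 6.26 and 6.27 on the MeJA arrays. MeJA arrays were thus lower than both mock arrays in Col-0, higher in coi1-2, and just lower in ein3 eil1. Across all features, MeJA arrays lay below both mock arrays in 27.2% in Col-0 and 21.5% in ein3 eil1. They lay above both in 20.6% in coi1-2. How many features combine these patterns over the genotypes was not counted.

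The MeJA difference of AT3G01190 was −1.26 ± 0.25 in Col-0, 2.39-fold lower and the lowest of the 55 peroxidases. It ran from −1.66 to −0.86 without array 1 or 2 of Col-0 MeJA. In coi1-2 it was 0.89 ± 0.25, 1.85-fold higher and rank 2 from the top among the peroxidases, and in ein3 eil1 it was −0.27 ± 0.25, or −0.05 without array 1 and −0.50 without array 2 of ein3 eil1 mock. The coi1-2 and Col-0 differences lay 2.15 ± 0.36 apart, the 9th highest such value of all features, and those of ein3 eil1 and Col-0 lay 0.98 ± 0.36 apart.

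Under mock AT3G01190 was close to Col-0 in both mutants, at −0.45 ± 0.25 in coi1-2 and −0.27 ± 0.25 in ein3 eil1. Without array 2 of Col-0 mock these became −0.13 and 0.05, and without array 1 −0.76 and −0.59. Under MeJA it was 3.25-fold higher in coi1-2 than in Col-0 (1.70 ± 0.25) and 1.64-fold higher in ein3 eil1 (0.71 ± 0.25), the highest of the 55 peroxidases in both comparisons. Both mutant arrays lay above both Col-0 arrays under MeJA, as in 24.9% of all features for coi1-2 and 21.9% for ein3 eil1. The coi1-2 value was 1.30 without array 2 of Col-0 MeJA and 2.10 without array 1, and that of ein3 eil1 was 0.31 and 1.12.

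By mean level AT3G01190 ran from coi1-2 MeJA (7.26) over Col-0 mock (6.81), ein3 eil1 mock (6.54), coi1-2 mock (6.37) and ein3 eil1 MeJA (6.27) to Col-0 MeJA (5.55). With a pooled SD of 0.33, 0 of the 5 steps had a gap between nearest arrays beyond it, and the 3 mock groups overlapped in turn. Only groups further apart in this order, such as coi1-2 MeJA and Col-0 MeJA, were separated by more than the spread.

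**Figure D2:**
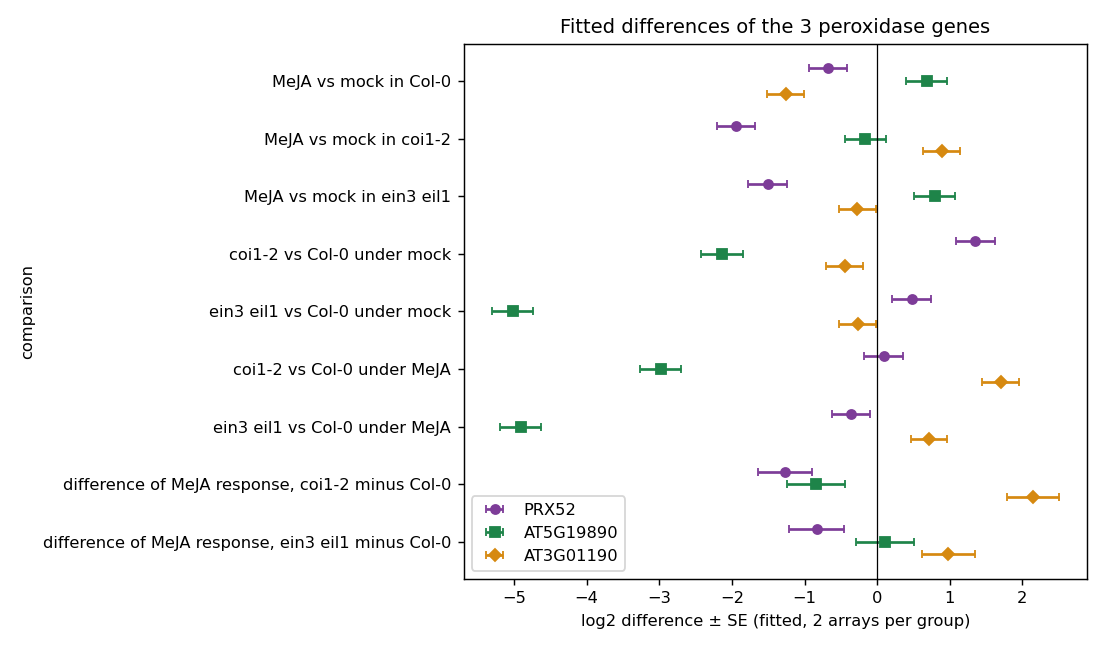
Fitted log2 difference with its SE (horizontal axis) of PRX52, AT5G19890 and AT3G01190 in 9 comparisons (vertical axis), from 2 arrays per group. PRX52 lies below 0 for MeJA in all 3 genotypes, AT5G19890 reaches −5.02 in ein3 eil1 under mock, and AT3G01190 lies at −1.26 for MeJA in Col-0 and at 0.89 in coi1-2.

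The genes whose log2 levels were most like those of each peroxidase were sought among 1401 other named genes with group means spanning at least 1, by Pearson correlation over the 12 arrays. This is a description, since the arrays share genotypes, treatments and normalization. PRX52 was most like EXPA4, an expansin that loosens cell walls, at 0.935, then AT1G07650 (0.925), AT2G45340 (0.921), the linker histone gene HIS1-3 (0.91) and AT4G38080 (0.885). EXPA4 stood at 8.67 and 8.84 in coi1-2 mock and at 7.28 and 7.30 in Col-0 MeJA, and HIS1-3 at 6.30 and 6.32 and at 3.75 and 3.88. Both were highest in coi1-2 mock, as PRX52 was.

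AT5G19890 was most like another class III peroxidase gene, AT1G49570, at 0.973. AT1G49570 stood at 9.47 and 9.25 in Col-0 mock and at 9.32 and 9.75 in Col-0 MeJA. In coi1-2 it stood at 7.40 and 6.88 on the mock arrays and at 7.80 and 7.56 on the MeJA arrays. In ein3 eil1 it stood at 6.01 and 5.99 on the mock arrays and at 6.95 and 6.37 on the MeJA arrays. Under each treatment its group means had the genotype order of AT5G19890, and over the 6 groups they spanned 3.54 against 5.70. Its step from Col-0 to coi1-2 under mock was not smaller (−2.22 ± 0.22 against −2.14 ± 0.28). Array 1 of ein3 eil1 MeJA lay above array 2 of coi1-2 mock, so its genotypes were not fully apart. Next came AT5G62900 (0.946), AT3G11210 (0.938), AT5G40590 (0.931) and AT3G54040 (0.93).

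AT3G01190 had no gene as close. The highest was AT5G11070 at 0.775, followed by AT2G21100 (0.746), UGT72E1 (0.731), a glucosyltransferase that acts on lignin precursor aldehydes, AT3G57800 (0.716) and AT3G45160 (0.693). Within the family, PRX52 was most like AT2G35380 (0.785) and AT3G01190 most like AT5G66390, or PRX72, a peroxidase of lignification (0.655).

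**Figure D3:**
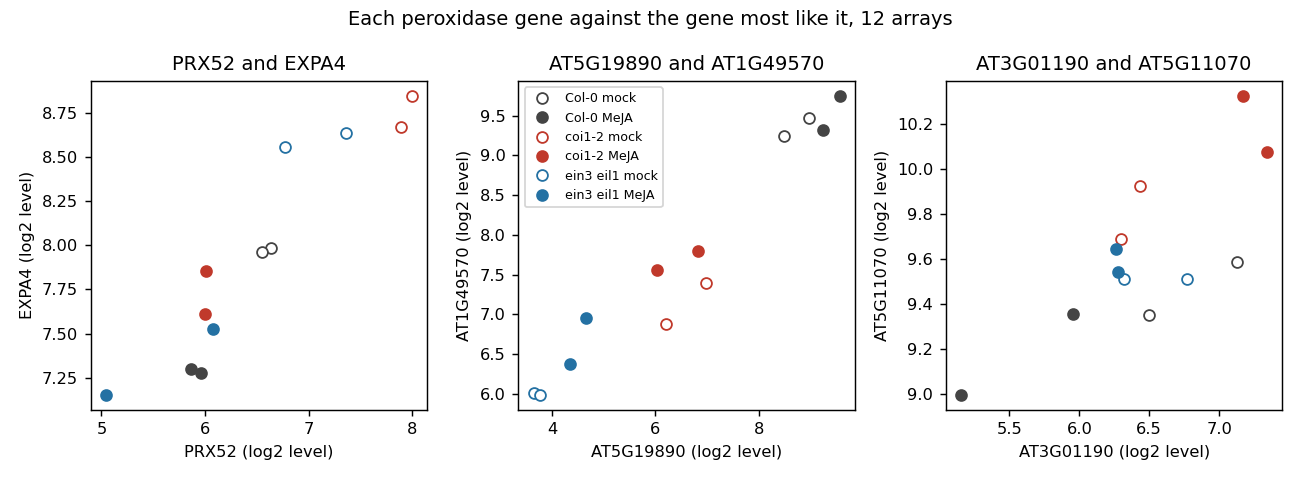
Log2 level of each of the 3 peroxidase genes (horizontal axes) against the gene with the highest correlation to it (vertical axes), 1 point per array, open for mock and filled for MeJA, coloured by genotype. PRX52 and EXPA4 follow each other at 0.935, AT5G19890 and AT1G49570 at 0.973 and AT3G01190 and AT5G11070 at 0.775.

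The other 52 measured class III peroxidases place these values in their family. The group means of AT5G19890 spanned 5.70, the widest of all 55, those of PRX52 2.39 (rank 7) and those of AT3G01190 1.70 (rank 12). The 52 others had a median span of 0.82, against 0.42 over all features. Of the 52, 24 were called in 0 of the 9 comparisons by limma (Benjamini-Hochberg adjusted p under 0.05 over all features), or 46.2%, against 76.2% of all features. The comparisons share arrays, so their counts are not independent of each other.

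Under mock, many of the others differed from Col-0 in coi1-2. Of 52, 7 were higher and 14 lower, 21 in all or 40.4%, against 13.5% of all features (7.41% higher and 6.07% lower), with medians of −0.18 and −0.03. Leaving out array 1 of Col-0 mock or array 1 of coi1-2 mock gave 13. Both measured root hair markers, EXPA7 (−0.86 ± 0.16) and EXPA18 (−1.04 ± 0.26), were lower in the same comparison, and their part in this count was not tested. Lowest was AT1G49570 (−2.22 ± 0.22, adjusted p = 3.36e-05), the only one of the 52 below AT5G19890, followed by Prx37 (−1.95 ± 0.21), AT1G34510 (−1.74 ± 0.38) and AT4G11290 (−1.44 ± 0.20). Higher than Col-0, on the side of PRX52, were AT5G39580 (1.91 ± 0.15, adjusted p = 6.95e-06), AT1G14550 (1.44 ± 0.13), AT5G64120 or PRX71, which restrains growth after wall damage (1.29 ± 0.21), and AT3G28200 (0.63 ± 0.14). AT1G14550 lay below the lower quartiles in Col-0 mock (3.32 and 3.40), so the size of its difference is uncertain. The calls of AT1G34510 (arrays 1 and 2 of Col-0 mock and array 1 of coi1-2 mock) and AT3G28200 (array 1 of Col-0 mock and arrays 1 and 2 of coi1-2 mock) were lost without each of these arrays. AT5G24070 (−0.87 ± 0.33, adjusted p = 0.109) and AT5G64100 (0.84 ± 0.30, adjusted p = 0.0909) were the extremes that did not pass.

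In ein3 eil1 under mock, 2 of the 52 were higher and 11 lower than in Col-0, or 25% against 9.33% of all features (6.13% higher and 3.2% lower), with medians of −0.13 and −0.03. The count was 8 without array 1 of Col-0 mock and 7 without array 2 of ein3 eil1 mock. The lowest after AT5G19890 were AT1G49570 (−3.36 ± 0.22, 10.3-fold, adjusted p = 1.2e-06), AT5G64100 (−2.12 ± 0.30), AT3G49960 (−2.06 ± 0.23, adjusted p = 8.12e-05) and AT4G26010 (−1.58 ± 0.33), the last lost without array 1 of Col-0 mock or array 2 of ein3 eil1 mock. AT5G66390 (0.72 ± 0.13) and AT5G14130 (0.62 ± 0.18) were higher, the latter a call lost without any one of 6 arrays, those of Col-0 and of ein3 eil1 mock. AT5G24070 (−0.97 ± 0.33, adjusted p = 0.0926) and AT1G68850 (0.52 ± 0.21, adjusted p = 0.167) did not pass. Of the 2 measured root hair markers 0 passed here, with EXPA7 at −0.13 ± 0.16 and EXPA18 at −0.34 ± 0.26.

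Under MeJA, 7 of the 52 were higher and 5 lower in coi1-2 than in Col-0, or 23.1% against 7.29% of all features (4.19% higher and 3.1% lower), with medians of 0.01 and 0.00. AT5G64120 (1.64 ± 0.21, adjusted p = 0.000349), AT5G39580 (1.07 ± 0.15), AT5G66390 (1.05 ± 0.13) and AT3G28200 (1.02 ± 0.14) were the highest, all below the value of AT3G01190. AT1G49570 (−1.86 ± 0.22), AT2G41480 (−1.25 ± 0.16), Prx37 (−0.84 ± 0.21) and AT4G08780 (−0.59 ± 0.13) were the lowest, and the last 2 lost their calls without array 1 of Col-0 MeJA or array 2 of coi1-2 MeJA, and Prx37 also without array 1 of coi1-2 MeJA. Prx37 and AT4G08780 have neighbouring locus codes, and whether their probe sets share signal was not tested. AT1G34510 (−0.79 ± 0.38, adjusted p = 0.292) and AT5G64100 (0.98 ± 0.30, adjusted p = 0.0733) did not pass. Of the 2 measured root hair markers 0 passed here, with EXPA7 at −0.49 ± 0.16 and EXPA18 at −0.23 ± 0.26.

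In ein3 eil1 under MeJA, 0 of the 52 were higher and 9 lower than in Col-0, or 17.3% against 5.48% of all features (2.92% higher and 2.56% lower), with medians of −0.06 and 0.01, and 20 had an unadjusted p under 0.05 in either direction. With the 4 arrays of this comparison alone the count was 3. They were led by AT1G49570 (−2.87 ± 0.22, adjusted p = 9.3e-06), AT3G49960 (−2.37 ± 0.23), AT4G26010 (−1.64 ± 0.33) and AT1G34510 (−1.64 ± 0.38). The last 2 lost their calls without array 1 of Col-0 MeJA, and AT1G34510 also without array 2 of ein3 eil1 MeJA. EXPA7, 1 of the 2 measured root hair markers, was lower as well (−1.03 ± 0.16, limma adjusted p = 0.00217). The log2 of the summed signals of both markers lay between 7.16 and 7.54 in ein3 eil1 MeJA. In Col-0 MeJA it lay between 8.08 and 8.2. The part of EXPA7 in these values was not tested. AT4G11290 (−0.64 ± 0.20, adjusted p = 0.084) and AT4G36430 (0.59 ± 0.16, adjusted p = 0.0595) did not pass.

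**Figure D4:**
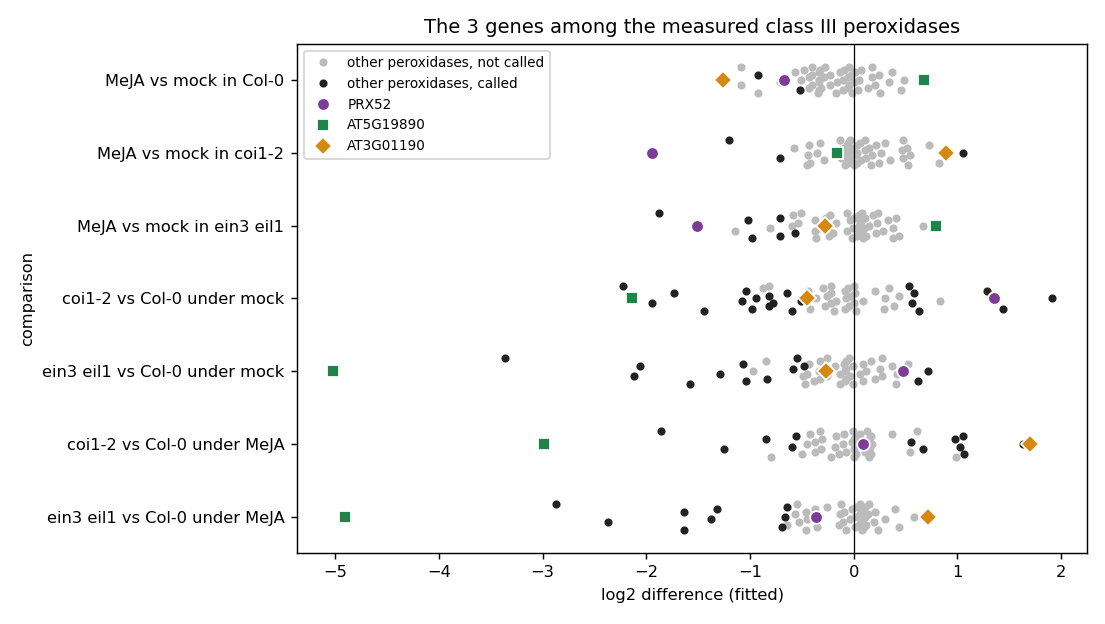
Fitted log2 difference (horizontal axis) of the 52 other measured class III peroxidases (small points, black where called by limma, grey where not) and of PRX52, AT5G19890 and AT3G01190 (large symbols, not tested) in 7 comparisons (vertical axis). AT5G19890 lies beyond all others in both comparisons of ein3 eil1 with Col-0, and PRX52 is the lowest for MeJA in coi1-2.

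Fewer of the 52 others were called for MeJA than between genotypes. With all 12 arrays their share was below that of all features only in Col-0, a contrast that rests on few calls. Without single arrays the counts ran from 1 to 4 in Col-0, 1 to 4 in coi1-2 and 0 to 6 in ein3 eil1. That contrast is therefore not settled. In Col-0 0 were higher and 2 lower, AT5G64120 (−0.92 ± 0.21, adjusted p = 0.016) and AT3G28200 (−0.52 ± 0.14, adjusted p = 0.0447), or 3.85% against 7.62% of all features (4.56% higher and 3.07% lower), and 19 had an unadjusted p under 0.05. AT5G64120 was not called without array 1 or 2 of Col-0 mock or array 1 of Col-0 MeJA, and AT3G28200 not without any one of 10 arrays, all but those of ein3 eil1 MeJA. The count was 1 without any one of 7 arrays, the 6 mock arrays and array 1 of Col-0 MeJA, and 4 without either ein3 eil1 MeJA array. The median of the 52 was −0.16, against −0.03 over all features, and 38 of 52 lay below 0. AT1G34510 (−1.09 ± 0.38, adjusted p = 0.125) and AT2G41480 (0.48 ± 0.16, adjusted p = 0.0959) did not pass. Below all of these lay AT3G01190, and above them AT5G19890.

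In coi1-2, MeJA raised 1 of the 52, AT4G11290 (1.05 ± 0.20, adjusted p = 0.0108), and lowered 2, AT1G14550 (−1.21 ± 0.13, adjusted p = 0.000284) and AT5G39580 (−0.71 ± 0.15), in all 5.77% against 2.56% of all features (1.55% higher and 1.01% lower), with medians of 0.01 and 0.00. AT1G14550 lay below the lower quartiles in coi1-2 MeJA (3.60 and 3.59), so the size of its fall is uncertain. With each array centred on its median the split was 2 higher and 2 lower. The call of AT4G11290 was lost without array 1 or 2 of coi1-2 mock or array 2 of coi1-2 MeJA, and that of AT5G39580 without any coi1-2 or ein3 eil1 mock array or either coi1-2 MeJA array. The count was 1 without array 1 of coi1-2 mock or array 2 of coi1-2 MeJA. AT5G64120 (−0.58 ± 0.21, adjusted p = 0.252) and Prx37 (0.83 ± 0.21, adjusted p = 0.0642) did not pass.

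In ein3 eil1, 0 were higher and 6 lower, or 11.5% against 4.29% of all features (1.68% higher and 2.61% lower), with medians of −0.01 and 0.01. These were led by AT1G34510 (−1.88 ± 0.38, adjusted p = 0.0153), AT3G49960 (−1.02 ± 0.23), AT2G35380 (−0.98 ± 0.19) and AT5G64110 (−0.71 ± 0.16). With the 4 arrays of this comparison alone the count was 2. It was 0 without array 1 of ein3 eil1 mock and 2 without array 2 of ein3 eil1 mock. Without array 2 of ein3 eil1 MeJA the calls of AT1G34510, AT3G49960 and AT5G64110 were lost, and without its array 1 that of AT2G35380. AT4G26010 (−1.14 ± 0.33, adjusted p = 0.0851) and AT1G49570 (0.67 ± 0.22, adjusted p = 0.133) did not pass. EXPA7 fell too (−0.88 ± 0.16, adjusted p = 0.00835, lost without array 1 of ein3 eil1 mock or array 1 of ein3 eil1 MeJA), and its part in these values was not tested. For MeJA in Col-0 and in coi1-2, 0 of the 2 measured root hair markers passed.

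The difference of MeJA responses between coi1-2 and Col-0 was called for 1 of the 52, AT1G14550 (−1.38 ± 0.18, adjusted p = 0.00285), or 1.92% against 1.17% of all features (0.385% higher and 0.784% lower), with medians of 0.24 and 0.02. AT1G14550 stood at 4.64 and 4.95 in coi1-2 mock and between 3.32 and 3.64 on the other 10 arrays, below the lower quartiles, so its response elsewhere was not measurable. The count was 2 without array 1 of Col-0 mock or either ein3 eil1 MeJA array. AT5G39580 (−0.84 ± 0.22, adjusted p = 0.101) and Prx37 (1.11 ± 0.30, adjusted p = 0.118) did not pass. Between ein3 eil1 and Col-0 limma called 0 of the 52 (0%, against 1.81% of all features, 0.425% higher and 1.39% lower), with 8 at an unadjusted p under 0.05, 1 called when array 1 of Col-0 mock, array 2 of Col-0 mock or array 2 of ein3 eil1 MeJA was left out, and the extremes at −0.85 ± 0.22 (AT2G41480, adjusted p = 0.0863) and 1.02 ± 0.46 (AT5G24070, adjusted p = 0.359).

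Of the enzymes that supply peroxidases with lignin precursors, 2 of 19 listed had a named probe set. CCR2, a cinnamoyl-CoA reductase, had, like PRX52, its highest level in coi1-2 mock, at 6.64 and 6.40 against 4.32 and 4.24 in Col-0 mock (2.24 ± 0.23, adjusted p = 4.79e-05). MeJA lowered it in coi1-2 (−1.64 ± 0.23, adjusted p = 0.00163) and it was at 0.04 ± 0.23 in Col-0 (adjusted p = 0.961), and these responses differed (−1.68 ± 0.33, adjusted p = 0.0277), a call lost without any one of 10 arrays, all but those of ein3 eil1 MeJA. In ein3 eil1 CCR2 was higher than in Col-0 under mock (1.60 ± 0.23, adjusted p = 0.000642) and under MeJA (0.98 ± 0.23, adjusted p = 0.0268), the latter lost without array 1 or 2 of Col-0 MeJA or array 2 of ein3 eil1 MeJA. HCT, an acyltransferase of the same route, was higher in coi1-2 mock (0.77 ± 0.12, adjusted p = 0.00119) and ein3 eil1 mock (0.54 ± 0.12, adjusted p = 0.015) and rose with MeJA in Col-0 (0.51 ± 0.12, adjusted p = 0.0219). The ein3 eil1 call was lost without array 1 of Col-0 mock or either ein3 eil1 mock array, and the MeJA call without array 1 of Col-0 mock or array 1 of Col-0 MeJA. Of the NADPH oxidases that feed hydrogen peroxide to the wall, 3 of 10 were measured and limma called 0 in any of the 9 comparisons, with 1 at an unadjusted p under 0.05, in coi1-2 under mock. Their signal was low, between 3.19 and 4.18, with RBOHI below the lower quartile on 12 arrays, RBOHE on 7 and RBOHG on 3, where a difference may not be detectable. Of 3 catalases and 3 lignin laccases listed, 0 had a named probe set.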

How the data were processed

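Total RNA of 12 samples was labelled with biotin and hybridised to ATH1 arrays, per the labels. The deposited table holds log2 expression levels of 22810 probe sets, and per the submitters' processing notes the authors used RMA, Affymetrix Expression Console and Partek, with no role, order or version stated. RMA gives arrays nearly the same distribution, so a shift shared by most genes would not show. Depth has no meaning for arrays, and 2 arrays per group limit precision.

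The 64 control probe sets were left out. The platform annotation gave 13513 probe sets 1 gene name, 503 several and 8730 none, and 13436 names matched the TAIR10.1 gene table, used for names and gene order only. Probe sets of 1 gene were averaged, giving 13355 named genes among 22588 features. Coordinates play no part here, the genome build of the probe sets being unstated in these sources.

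The 6 group means were fitted over all 12 arrays with limma 3.58.1 in R 4.3.3 (lmFit, eBayes, 6 residual and 6.24 prior degrees of freedom), with Benjamini-Hochberg adjustment over all features and a threshold of 0.05. SEs are those of this fit. The fit was tested on simulated data. Python 3.11.15, pandas 2.3.3 and matplotlib 3.10.9 drew the figures.

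The 3 genes and all lists were chosen with earlier results of these data known. Named are these 3, per comparison up to 4 called other peroxidases at each end and the extremes not called, up to 4 called members of each other list with up to 2 not called, the 5 genes most like each of the 3, and EIN3. Alternatives were quantile normalization, median centring, a floor on mean level (the 25th or the 50th percentile), trend and robust eBayes, arrays of the comparison alone, the replicate number as a block, each array left out, the probe set with the highest mean, and a threshold of 0.01.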

Additional observations from a re-analysis of the deposited data

Results flagged for a closer look

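AT3G01190 had MeJA differences of opposite sign in coi1-2 and Col-0. Both MeJA arrays lay above both mock arrays in coi1-2, as in 20.6% of all features, and below them in Col-0, as in 27.2%. How many features do both was not counted. The differences of AT3G01190 lay 2.15 ± 0.36 apart (log2, SE, n = 2 arrays in each of 4 groups). This was not tested because the gene was picked with its values known. The MeJA response of AT1G14550 was lower in coi1-2 than in Col-0 by a test of the difference itself (−1.38 ± 0.18, limma adjusted p = 0.00285), with levels above the lower quartile only on the coi1-2 mock arrays.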

How the results depend on the processing

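Quantile normalization and median centring moved the 27 log2 differences of PRX52, AT5G19890 and AT3G01190 by at most 0.13 and changed no sign in 54 cases. The replicate block and the choice of probe set could not move them, since the design is balanced and each gene has 1 probe set. Median centring moved the median of all features from −0.03 to −0.15 in ein3 eil1 against Col-0 under mock and from 0.03 to 0.15 in the ein3 eil1 difference of responses. Leaving out single arrays changed the sign of 4 of the 27 differences: AT3G01190 in ein3 eil1 against Col-0 under mock (−0.59 to 0.05), AT5G19890 in the ein3 eil1 difference of responses (−0.13 to 0.36) and for MeJA in coi1-2 (range −0.56 to 0.23, the latter without coi1-2 mock replicate 1 or coi1-2 MeJA replicate 2) and PRX52 in ein3 eil1 against Col-0 under MeJA (−0.87 to 0.16). It also moved AT3G01190 for MeJA in Col-0 (−1.66 to −0.86), against Col-0 under MeJA in coi1-2 (1.30 to 2.10) and ein3 eil1 (0.31 to 1.12), and in the differences of responses of coi1-2 (1.75 to 2.55) and ein3 eil1 (0.58 to 1.38). AT5G19890 moved in coi1-2 against Col-0 under mock (−2.53 to −1.74) and MeJA (−3.37 to −2.59) and in the coi1-2 difference of responses (−1.24 to −0.45). PRX52 moved for MeJA in ein3 eil1 (−2.02 to −0.99) and in its difference of responses (−1.35 to −0.32). The counts of other peroxidases called ran, without single arrays, from 1 to 4 for MeJA in Col-0, 1 to 4 in coi1-2 and 0 to 6 in ein3 eil1, from 13 to 22 in coi1-2 and 7 to 13 in ein3 eil1 under mock, from 8 to 13 and 6 to 9 under MeJA, and from 1 to 2 and 0 to 1 for the differences of responses. At an adjusted p under 0.01 they were 0 for MeJA in Col-0, 1 in coi1-2 and 0 in ein3 eil1. Against Col-0 they were 13 in coi1-2 under mock, and 7 in coi1-2 and 3 in ein3 eil1 under MeJA. Counts at 0.01 for ein3 eil1 under mock and the differences of responses, and shares of all features at 0.01, are not listed here. With the arrays of the comparison alone, which leaves fewer samples, they were 2 for MeJA in ein3 eil1, 3 in ein3 eil1 against Col-0 under MeJA and 2 for the coi1-2 difference of responses. Trend and robust estimation gave 5 for MeJA in coi1-2 and 2 for the coi1-2 difference of responses, and the cause was not tested. Filters at the 25th and 50th percentile gave 0 for that difference, since they remove the dim AT1G14550. Replicate numbers did not pair the samples: deviations of same-numbered arrays correlated from −0.22 to 0.23 over 15 pairs of groups, over 0.1 in 4, and the replicate block gave 1 call for MeJA in Col-0 in place of 2 and 10 in ein3 eil1 under mock in place of 13. Signals below the lower quartile limit AT5G19890 in ein3 eil1 mock and AT1G14550 in every group but coi1-2 mock.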

Other observations

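The 3 consecutive locus codes of the family, AT5G64100, AT5G64110 and AT5G64120, were singled out after their values were seen. All were highest in coi1-2 mock, at 10.93 and 10.79, at 7.91 and 7.85, and at 12.13 and 12.09. The difference of AT5G64100 from Col-0 mock did not pass (0.84 ± 0.30, limma adjusted p = 0.0909). Whether the probe sets of these 3 genes share signal was not tested. In ein3 eil1 mock AT5G64100 stood at 8.20 and 7.60 and AT5G64110 at 6.35 and 6.20, below Col-0 mock at 9.99 and 10.06 and at 7.13 and 7.5. AT5G64120 stood at 10.70 and 10.67 there, against 10.87 and 10.77 in Col-0 mock. Of the 52 other peroxidases, 6 lay below the lower quartile on all 12 arrays, or 11.5%, near the 14.5% of all features.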
